A study of Mus musculus with 15 samples.

Results

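The genes described are the 5 mouse dopamine receptors, Drd1, Drd2, Drd3, Drd4 and Drd5, and 3 subunits of the G protein-gated inwardly rectifying potassium channels (GIRK channels), Kcnj5, Kcnj6 and Kcnj9. They were taken by gene symbol and are 8 of the 35976 genes in the count table; all 8 were found. Kcnj3, which encodes the remaining GIRK subunit, was read beside them for comparison. The RNA came from nuclei of the ventral tegmental area (VTA), the midbrain region whose dopamine neurons project to the nucleus accumbens and prefrontal cortex. All mice were male DAT-Cre heterozygotes, 8 to 12 weeks old, which carry Cre recombinase in the dopamine transporter gene Slc6a3. All had received AAV5-DIO-KASH-HA in the VTA, a Cre-dependent virus that puts an HA-tagged nuclear envelope protein on cells with active Cre. Antibody-stained nuclei were sorted into an HA-positive population, labelled dopaminergic (DA), and an HA-negative one, labelled non-dopaminergic (nDA). Each sample pooled tissue from 2 mice.

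The 15 libraries form 4 groups, and all mice first had 7 days of lever training for food. Food-trained mice, taken after the last of these sessions and without cocaine, gave 4 DA and 4 nDA libraries. The cocaine maintenance group gave 3 DA libraries, taken after 5 days of self-administration at 0.3 mg/kg per infusion and 10 days at 1.0 mg/kg per infusion. The abstinence group, labelled craving, gave 4 DA libraries after the same cocaine schedule and 21 days in the home cage without the drug. The schedule places collection later at maintenance than after food training and latest after abstinence, while the same age range is listed for all groups. Age and time since the virus therefore cannot be told apart from stage. No drug-naive mice without operant training are among these groups, and nDA nuclei were compared at the food-training stage only. The labels do not say that same-numbered libraries share mice.

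Dopamine receptors fall into a D1 class (Drd1, Drd5), which couples to stimulatory G proteins and raises cyclic AMP, and a D2 class (Drd2, Drd3, Drd4), which couples to inhibitory Gi/o proteins. On midbrain dopamine neurons the D2 receptor is the autoreceptor: dopamine released from the cell body and dendrites binds it, the Gi/o protein frees its beta-gamma dimer, and the dimer opens GIRK channels, which lets potassium out and slows firing. GIRK channels are tetramers, and midbrain dopamine neurons are known for channels built from GIRK2 (Kcnj6) and GIRK3 (Kcnj9) with little GIRK1 (Kcnj3). GIRK4 (Kcnj5) is best known from the heart.

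Drd2 lies on chromosome 9 at chr9:49340627-49408177 on the plus strand (GRCm38, GENCODE M21), Kcnj6 at chr16:94748636-94997701 and Kcnj9 at chr1:172320501-172329318, both on the minus strand. Sequences upstream of these genes are shown because Drd2 separated the sorted populations most clearly among the 8 genes, and Kcnj6 and Kcnj9 are the channel subunits of the same autoreceptor path. Each is RefSeq sequence of GRCm38.p6, read 5′ to 3′ on the gene's own strand and ending at the boundary of the RefSeq gene, and spans chr9:49340153-49340359, chr16:94997702-94997946 and chr1:172329323-172329572, in that order. Capitals mark GC boxes, GGGCGG on either strand, the motif of Sp1-family factors.
Drd2 upstream: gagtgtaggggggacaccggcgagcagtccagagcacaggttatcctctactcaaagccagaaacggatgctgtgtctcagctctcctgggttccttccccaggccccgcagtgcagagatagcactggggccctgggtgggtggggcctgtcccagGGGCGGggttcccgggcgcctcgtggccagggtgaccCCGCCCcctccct
Kcnj6 upstream: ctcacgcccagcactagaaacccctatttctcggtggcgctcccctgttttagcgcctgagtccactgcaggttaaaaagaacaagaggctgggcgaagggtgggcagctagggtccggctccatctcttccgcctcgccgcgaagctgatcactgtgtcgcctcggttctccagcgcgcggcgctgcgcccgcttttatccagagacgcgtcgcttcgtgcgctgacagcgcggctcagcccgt
Kcnj9 upstream: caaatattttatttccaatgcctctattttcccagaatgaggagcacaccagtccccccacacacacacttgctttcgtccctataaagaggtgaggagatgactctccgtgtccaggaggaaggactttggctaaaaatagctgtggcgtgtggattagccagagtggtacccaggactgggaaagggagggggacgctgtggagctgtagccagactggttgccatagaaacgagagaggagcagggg
The Drd2 window lies 267 bases upstream of the GENCODE gene, because RefSeq starts the gene earlier; the Kcnj9 window lies 4 bases and the Kcnj6 window 0 bases from the GENCODE gene. The 207-base window of Drd2 held 2 GC boxes and were 67.6% G or C. A GC box was present in 26.0% of 32851 mouse promoter windows of that length. The 245-base window of Kcnj6 held 0 GC boxes and 26 CpG sites, and the 250-base window of Kcnj9 held 0 GC boxes and 5 CpG sites; Drd2 had 9 CpG sites. The core of the Nurr1 (Nr4a2) monomer element, AAGGTCA on either strand, had 0 matches in all 3 windows and occurred in 3.48% to 4.08% of promoter windows of these lengths.

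Total counts ran from 25813697 (food-training DA replicate 3) to 59046618 (abstinence DA replicate 2). DA libraries listed 14841 to 19750 genes above 0, and nDA libraries 22733 to 23886. All 15 dopamine-neuron marker genes were detected in each group, and their summed level was 5930 to 12700 CPM (the count scaled to the library's effective total) in the 11 DA libraries and 444 to 658 CPM in the nDA libraries. Markers of other cells were present in both populations. The 12 oligodendrocyte markers summed to 1760 to 2840 CPM in food-training DA libraries and 9960 to 23600 CPM in nDA libraries. The 10 microglial markers gave 569 to 1130 and 1880 to 3720 CPM, and the 10 astrocyte markers 1780 to 2300 and 2590 to 4920 CPM. The slope of log2 expression on transcript GC content was -0.0224 to -0.0376 per percent GC in the 3 maintenance libraries and -0.0248 in nDA replicate 2, against -0.0167 to 0.0322 in the other libraries.

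Drd2 was the dominant dopamine receptor RNA in every DA library. In food-trained mice its level was 96.5, 69.7, 134 and 112 CPM in DA replicates 1 to 4 and 8.54, 9.5, 14.2 and 8.84 CPM in the nDA libraries. The lowest DA library lay far above the highest nDA library. The log2 difference was 3.34 (SE 0.29, 95% interval 2.68 to 4, adjusted p = 0.00101, edgeR quasi-likelihood test with Benjamini-Hochberg adjustment over 19786 genes). In that test 3.63% of genes were higher in DA nuclei, 9.17% were lower, and 12.8% were called in either direction at an adjusted p of 0.05. Because these are bulk libraries, fewer cells with the RNA and less RNA per cell cannot be told apart.

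The nDA level of Drd2 was 9.96% of the DA level. Of the 15 dopamine-neuron markers, the tyrosine hydroxylase gene Th stood at 4.25% and the transporter gene Slc6a3 at 3.1% in nDA nuclei. The median log2 difference of all 15 markers was 3.37, near the 3.34 of Drd2. Of these markers, 11 were called higher in DA nuclei, against 3.63% of all genes. Drd2 CPM was 2.26% to 7.32% of Slc6a3 CPM across the 11 DA libraries and 7.92% to 17.9% across the nDA libraries, with no overlap. The other markers of the list were not set against Drd2 in this way. The highest nDA ratio belonged to replicate 3, which also had the highest nDA level of Drd2 but the lowest Slc6a3 level of the 4, 79.1 CPM. The Drd2 difference stayed past the threshold under each of 17 other settings, with log2 values of 3.21 to 3.56.

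Drd2 was not called in any comparison of cocaine history. Its mean was 103 ± 27 CPM after food training (SD, n = 4), 121 ± 54.3 CPM at maintenance (SD, n = 3) and 101 ± 15.7 CPM after abstinence (SD, n = 4). The maintenance libraries held both the lowest DA value, 60.3 CPM, and the highest, 164 CPM, with 140 CPM in replicate 2; abstinence values were 119, 92.9, 107 and 83.4 CPM. All 3 stages overlapped. The log2 difference was 0.24 for maintenance against food training (95% interval -0.48 to 0.95, adjusted p = 0.919), -0.04 for abstinence against food training (-0.71 to 0.63, adjusted p = 1) and -0.28 for abstinence against maintenance (-0.99 to 0.44, adjusted p = 0.983; edgeR, as above, over 19060 genes). These intervals leave room for changes in either direction, so the tests do not show that the level was constant.

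**Figure D1:**
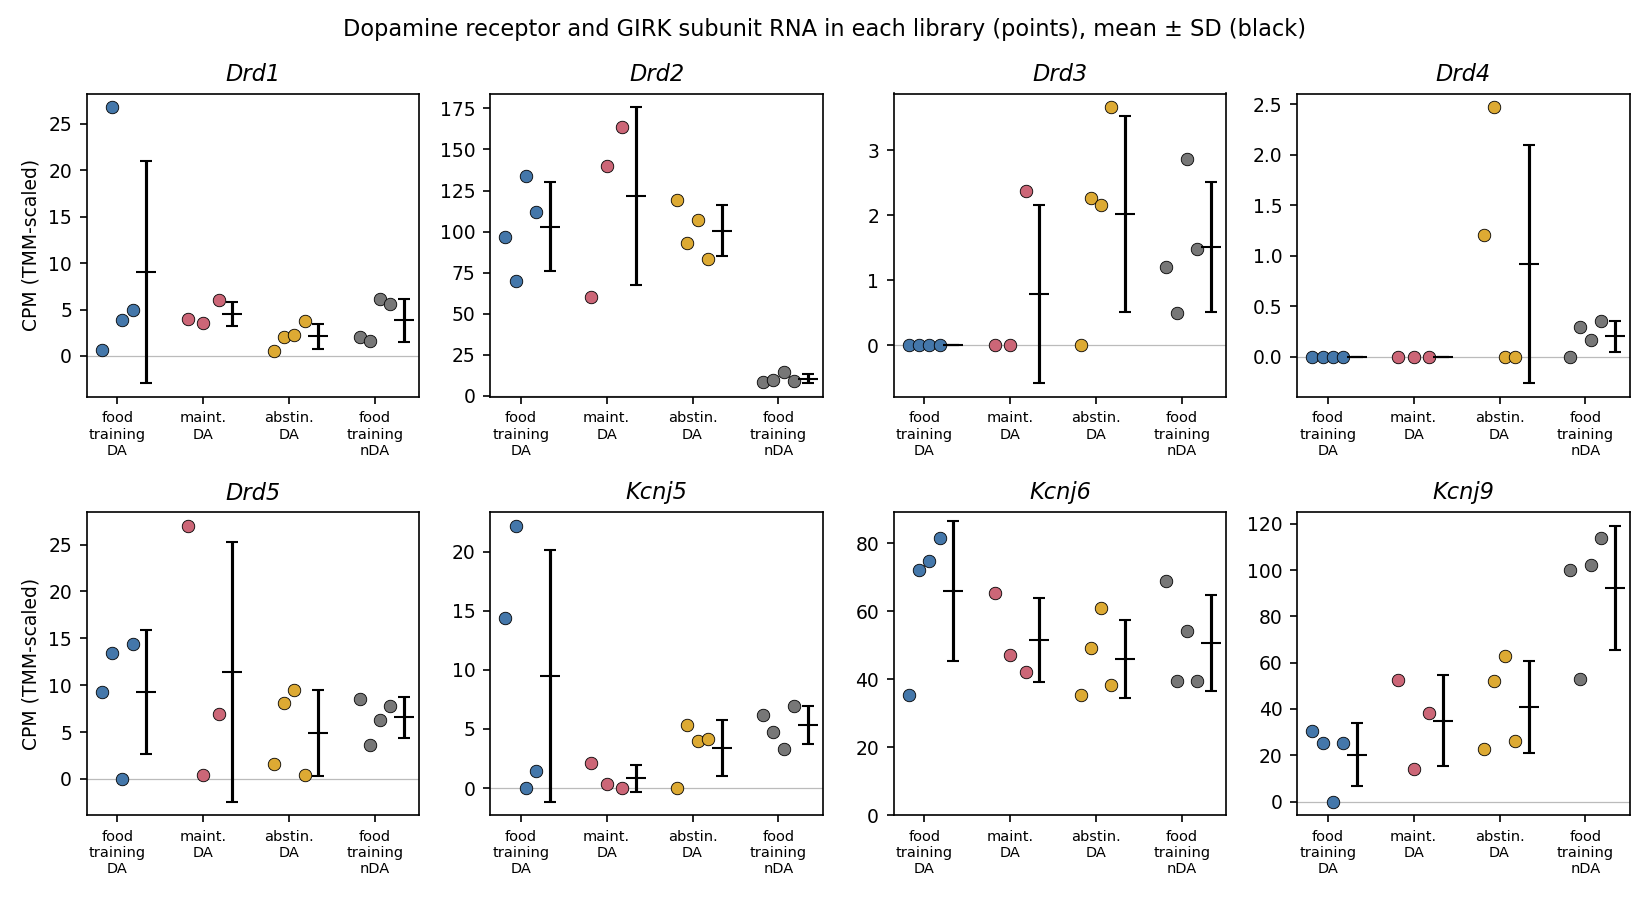
Expression of the 5 dopamine receptor and 3 GIRK subunit genes in each library, as TMM-scaled CPM on linear axes that differ between panels. Points are libraries, and the black bars are the group mean and SD (n = 4, or 3 for maintenance DA). The 4 nDA points of Drd2 lie between 8.54 and 14.2 CPM, below all 11 DA points, while for Kcnj9 the nDA points lie between 53.0 and 114 CPM.

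The other D2-class receptors were near the limit of detection. Drd3, a receptor with high dopamine affinity, had 0 counts in all 4 food-training DA libraries and 1.21, 0.5, 2.87 and 1.48 CPM in the nDA libraries. It was called lower in DA nuclei (adjusted p = 0.00785, edgeR). With 3 counts per library as the floor, 0.0778 CPM on average, its level was at least 19.5-fold lower in DA nuclei, a bound that covers counting error only. Drd3 entered that test through its nDA counts alone, so a tested Drd3 had to differ, and the call gives no support beyond the counts themselves. The call was lost in a fit of all 15 libraries (adjusted p = 0.0616, edgeR) and with replicate number added as a block (adjusted p = 0.175, edgeR). Over 16 settings the adjusted p ranged from 0.00025 to 0.175. Oligodendrocyte, microglial and astrocyte markers were also higher in the nDA libraries, as given above, and their part in the Drd3 difference was not tested.

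Drd3 counts were present in some DA libraries of cocaine mice. It had 0, 0 and 2.37 CPM at maintenance and 0, 2.26, 2.16 and 3.66 CPM after abstinence. Since 2 maintenance libraries and 1 abstinence library were also at 0, both stages overlapped with food training. The unadjusted p was 0.0285 for maintenance and 0.0177 for abstinence against food training, and neither passed the adjusted threshold (adjusted p = 0.396 and 1, edgeR). DESeq2 called both differences, with adjusted p = 3.76e-08 and 7.42e-10. Drd3 entered these tests through the counts of 3 abstinence libraries and 1 maintenance library alone, so they give no support for a difference. Over all alternative settings the adjusted p ran from 3.76e-08 to 1.0 for maintenance and from 7.42e-10 to 1.0 for abstinence. Without maintenance replicate 3, the single maintenance library with Drd3 counts, the log2 difference for maintenance was 0.0.

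Drd4, whose RNA is best known from retina and cortex, was tested in neither fit because too few libraries held counts. It was at 0 in all 4 food-training and all 3 maintenance DA libraries. Abstinence DA replicates 1 and 2 held 1.2 and 2.47 CPM and replicates 3 and 4 were at 0. The nDA libraries had 0, 0.292, 0.163 and 0.348 CPM, from 14, 7 and 16 counts in replicates 2 to 4. A count of 0 allows a level of up to 3 counts, which is 0.0518 to 0.108 CPM across the libraries, for counting error only.

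The D1-class receptors were low and uneven. Drd1, the main D1-class receptor of striatal neurons, had 0.622, 26.8, 3.83 and 4.95 CPM in food-training DA libraries and 1.99, 1.62, 6.11 and 5.59 CPM in nDA libraries. Replicate 2 stood apart from the other 3 DA values, and the populations overlapped (log2 difference 1.25, SE 1.08, adjusted p = 0.562, edgeR). Leaving out that library turned the difference to -0.28. At maintenance Drd1 was at 3.96, 3.58 and 6.02 CPM and after abstinence at 0.482, 2.02, 2.23 and 3.76 CPM. Against food training the log2 difference was -1.01 (SE 1.24, adjusted p = 0.889, edgeR) at maintenance and -2.10 (SE 1.16, adjusted p = 1, edgeR) after abstinence. With single libraries left out, the abstinence difference ran from -2.55 to -0.57.

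Markers of striatal spiny neurons, which express Drd1 or Drd2 strongly, were read beside Drd1. Their summed level was 651 CPM in the food-training DA library with the high Drd1 value and 279 to 819 CPM across that group, so the library did not stand out on that list. The list summed to 363 to 1040 CPM in maintenance DA, 405 to 907 CPM in abstinence DA and 417 to 472 CPM in nDA libraries. In food-training and in maintenance DA nuclei 6 of its 7 genes were detected, and the remaining gene, Adora2a, was at 0. All 7 were detected in abstinence DA and in nDA libraries. The part of such cells in the Drd1 and Drd2 values was not tested.

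Drd5, the second D1-class receptor, had its widest spread at maintenance. It had 9.28, 13.4, 0 and 14.4 CPM in food-training DA, 27, 0.411 and 6.92 CPM in maintenance DA and 1.62, 8.11, 9.45 and 0.407 CPM in abstinence DA libraries. The nDA libraries were closer together, at 8.52, 3.6, 6.28 and 7.81 CPM. All groups overlapped, with log2 differences of 0.51 between the populations (SE 1.27), 0.28 for maintenance against food training (SE 1.56) and -0.94 for abstinence against food training (SE 1.46). Drd5 has a single exon that shares 1531 bases with an antisense gene, Gm26560; whether counting used the strand is not given in the sources used here. Gm26560 itself was listed at a mean of at most 0.283 CPM in any group.

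Per kilobase of the longest annotated transcript, the receptor genes in food-training DA nuclei ran in the order Drd2 (40.5 CPM per kb, range 27.4 to 52.5), Drd5 (2.95, range 0 to 4.58) and Drd1 (2.53, range 0.174 to 7.5), with Drd3 and Drd4 at 0. Drd2 stood clear of the rest, and Drd5 and Drd1 did not differ beyond their spread. In nDA nuclei the order was Drd2 (4.03 CPM per kb), Drd5 (2.08), Drd1 (1.07), Drd3 (0.885) and Drd4 (0.0717).

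As a share of summed receptor CPM per kb, Drd2 made up 87.1% ± 12.2 (SD, n = 4) in food-training DA nuclei, with a range of 69.9% to 98%. The share was 87.2% ± 14.3 (SD, n = 3) at maintenance, 91.3% ± 4.51 (SD, n = 4) after abstinence and 50.6% ± 10.5 (SD, n = 4) in nDA nuclei. The nDA libraries, 40.8% to 65.2%, did not overlap with any DA library. In nDA nuclei Drd5 took up 26% ± 8.71 (SD, n = 4) of the receptor total and Drd1 12.4% ± 5.43 (SD, n = 4). Between the food-training populations the share differed by 36.5 points (two-sided exact permutation test, p = 0.0286, the smallest that 4 against 4 libraries allow; 0.0572 after Benjamini-Hochberg adjustment over 4 shares, which were chosen after their values were seen). The shares rest on transcript lengths from the annotation.

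Among the channel subunits, Kcnj6 overlapped between the populations. Food-training DA libraries had 35.5, 72, 74.6 and 81.4 CPM and nDA libraries 68.9, 39.5, 54.3 and 39.5 CPM. The lowest DA value, in replicate 1, lay below all nDA values, and the log2 difference of 0.39 did not pass the threshold (SE 0.31, 95% interval -0.31 to 1.09, adjusted p = 0.516, edgeR). Kcnj6 shares 380 exon bases with an antisense gene, Gm41505, listed at 10.5 CPM in food-training DA and 4.48 CPM in nDA nuclei.

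Kcnj6 was called in no comparison of stages. Its values were 65.4, 47.1 and 42 CPM at maintenance and 35.4, 49.1, 60.9 and 38.4 CPM after abstinence. Of the 4 food-training libraries, 3 lay above every maintenance and abstinence library and replicate 1 lay among them. The log2 difference was -0.36 for maintenance (SE 0.33, adjusted p = 0.819, edgeR) and -0.53 for abstinence (SE 0.31, unadjusted p = 0.106, adjusted p = 1, edgeR). With a term shared by the 3 maintenance libraries and nDA replicate 2, whose GC slopes were the most negative, the maintenance difference became 0.08; that term rests on this single nDA library.

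Kcnj9 was lower in each food-training DA library than in any nDA library. It had 30.3, 25.5, 0 and 25.1 CPM in food-training DA libraries and 100, 53, 102 and 114 CPM in nDA libraries. Such a lack of overlap was found for 26.1% of the genes tested. The log2 difference of -2.18 did not pass the threshold (SE 1.11, 95% interval -4.69 to 0.33, adjusted p = 0.278, edgeR). Without DA replicate 3, which had 0 counts of Kcnj9 and the lowest total count, the difference was -1.74 with an adjusted p of 0.0109 (edgeR), past the threshold. Over 16 settings the adjusted p ranged from 0.0109 to 0.451 and the log2 difference from -2.94 to -1.74. The direction is the same as that of the oligodendrocyte, astrocyte and microglial markers, whose part in it was not tested.

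In cocaine mice Kcnj9 was at 52.6, 14 and 38.4 CPM at maintenance and at 22.5, 52.3, 62.9 and 26 CPM after abstinence. Both stages overlapped with the food-training values and had no library at 0. The log2 differences of 0.78 for maintenance (SE 1.06) and 1.00 for abstinence (SE 1.00) were smaller than or equal to their errors. Abstinence against maintenance gave 0.22 (SE 1.07), which turned to -0.24 after GC correction and -0.75 with the GC-slope term; the longest Kcnj9 transcript is 57.2% G or C. Kcnj9 shares 172 exon bases with an antisense gene, Gm36937, for which no row was read here. The 6 GABA-neuron markers summed to 161 to 250 CPM in food-training DA, 183 to 378 CPM in maintenance DA and 209 to 448 CPM in abstinence DA libraries. Their part in the Kcnj9 values was not tested.

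Kcnj5 was low and scattered. It had 14.4, 22.2, 0 and 1.44 CPM in food-training DA, 2.12, 0.323 and 0 CPM in maintenance DA and 0, 5.38, 4.02 and 4.14 CPM in abstinence DA libraries. The nDA libraries were again closer together, at 6.2, 4.71, 3.34 and 6.97 CPM. The largest stage difference among the channel genes, a log2 value of -3.56 at maintenance against food training, had an SE of 2.35 (adjusted p = 0.646, edgeR) and rested on food-training replicates 1 and 2, since the other 2 overlapped with maintenance.

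Kcnj3, whose product GIRK1 needs another GIRK subunit to reach the cell surface, was at 52.2, 22.6, 24 and 37.4 CPM in food-training DA and 38.3, 46.7, 54.2 and 72.2 CPM in nDA nuclei. The log2 difference was -0.62 (SE 0.33, adjusted p = 0.302, edgeR). At maintenance it reached 105, 39.9 and 74.9 CPM and after abstinence 32, 68.1, 64.9 and 32 CPM. Maintenance against food training gave 1.10 (SE 0.42, 95% interval 0.19 to 2.00, unadjusted p = 0.0208, adjusted p = 0.387, edgeR), with overlap between 39.9 and 52.2 CPM. After GC correction the difference was 0.92 (adjusted p = 0.466, edgeR). Its exons share 1621 bases with the antisense gene Gm26794, for which no row was read here. The GABA-neuron marker sums given above were 161 to 250 CPM in food-training DA and 183 to 378 CPM in maintenance DA libraries. Their part in the Kcnj3 values was not tested.

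**Figure D2:**
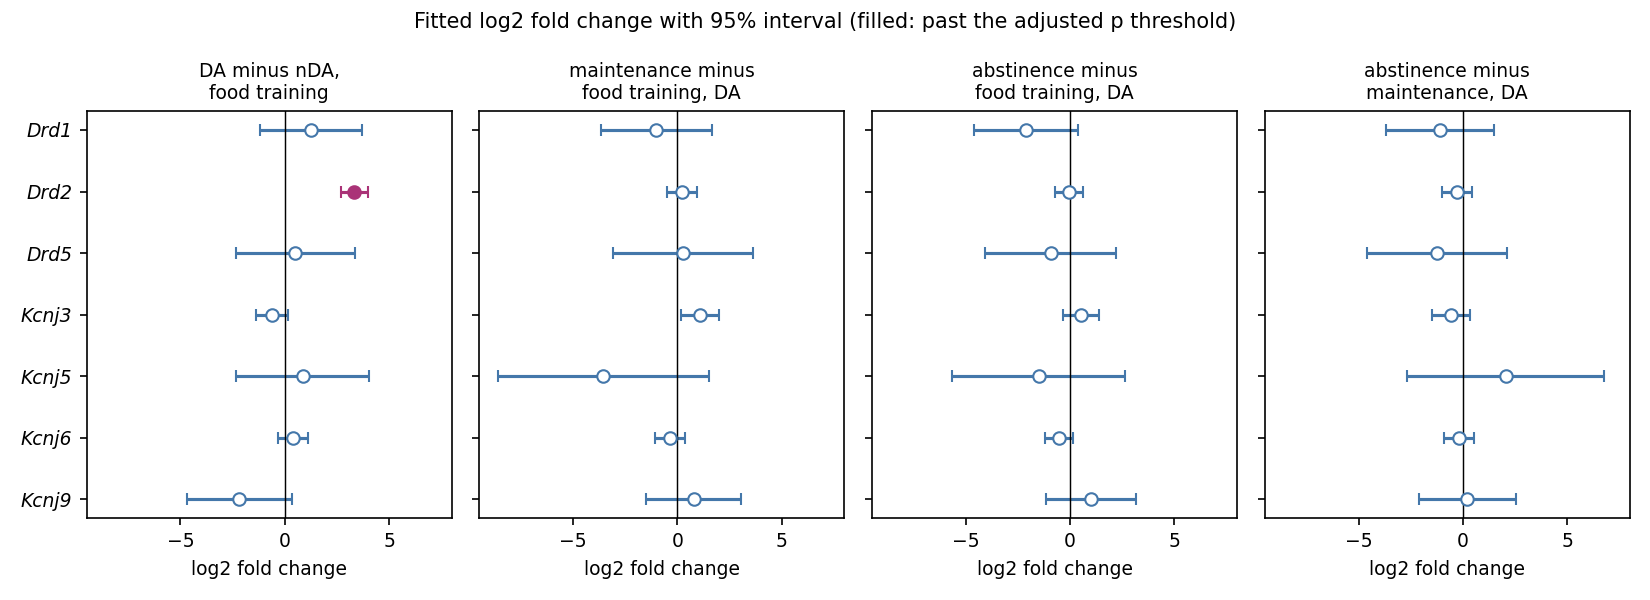
Fitted log2 fold changes with 95% intervals for 6 of the 8 genes and Kcnj3 in the 4 comparisons; filled symbols passed the adjusted p threshold of 0.05. Drd3 is left out because food-training DA libraries were all at 0, and Drd4 because it was not tested. Drd2 in DA against nDA nuclei, at 3.34, is the filled symbol, and the intervals of Drd1, Drd5, Kcnj5 and Kcnj9 are several times as wide as those of Drd2 and Kcnj6.

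Per kilobase of longest transcript, Kcnj6 led the GIRK subunits in food-training DA nuclei at 18.2 CPM per kb (range 9.80 to 22.4), ahead of Kcnj3 at 6.53 (range 4.34 to 10.0), Kcnj9 at 5.24 (range 0 to 7.86) and Kcnj5 at 2.03 (range 0 to 4.74). Each neighbouring range in that order overlapped. In nDA nuclei Kcnj9 led at 23.9 CPM per kb (range 13.7 to 29.6), followed by Kcnj6 at 13.9, Kcnj3 at 10.1 and Kcnj5 at 1.13. The level of Kcnj6 depends on the length used: its exons span 7633 bases in all against 3627 bases in the longest transcript, and over the former its food-training DA level was 8.63 CPM per kb. In nDA nuclei its level over all exons was 6.62 CPM per kb, below that of Kcnj3 at 10.1, so the order there turns.

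Kcnj6 made up 57.8% ± 20.5 (SD, n = 4) of summed GIRK CPM per kb in food-training DA nuclei and 28.8% ± 6.77 (SD, n = 4) in nDA nuclei. Kcnj9 made up 15.5% ± 10.9 (SD, n = 4) and 47.8% ± 5.74 (SD, n = 4). The Kcnj9 shares did not overlap, at 0% to 25.6% in DA and 39.7% to 53% in nDA libraries, while the Kcnj6 shares did. Kcnj3 had nearly the same share in both, 20.7% and 21%. At maintenance and after abstinence Kcnj9 held 22.9% ± 6.97 (SD, n = 3) and 30.6% ± 4 (SD, n = 4), below every nDA library, and Kcnj6 held 40% ± 11.6 (SD, n = 3) and 39.4% ± 5.8 (SD, n = 4). The abstinence shares of Kcnj9, 26.8% to 35.1%, also lay above every food-training DA library, with a narrow gap to the highest of these at 25.6%. Food-training DA replicate 3, with 0 counts of Kcnj9, is among those libraries, and Kcnj9 CPM overlapped between these stages. Kcnj3 held 36.7% ± 4.61 (SD, n = 3) at maintenance and 28% ± 2.72 (SD, n = 4) after abstinence, and both stages overlapped with food training, at 12.2% to 32.6%. Shares were not tested between stages, and the GIRK shares depend on the length used for Kcnj6. Food-training DA and nDA shares were compared in the same exact permutation test. Its adjusted p was 0.0572 for Kcnj9, 0.0761 for Kcnj6 and 0.943 for Kcnj3, so none passed the threshold. For Kcnj9 the unadjusted p of this test was 0.0286, the smallest that 4 against 4 libraries allow. The failure to pass therefore does not show that the shares were equal.

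**Figure D3:**
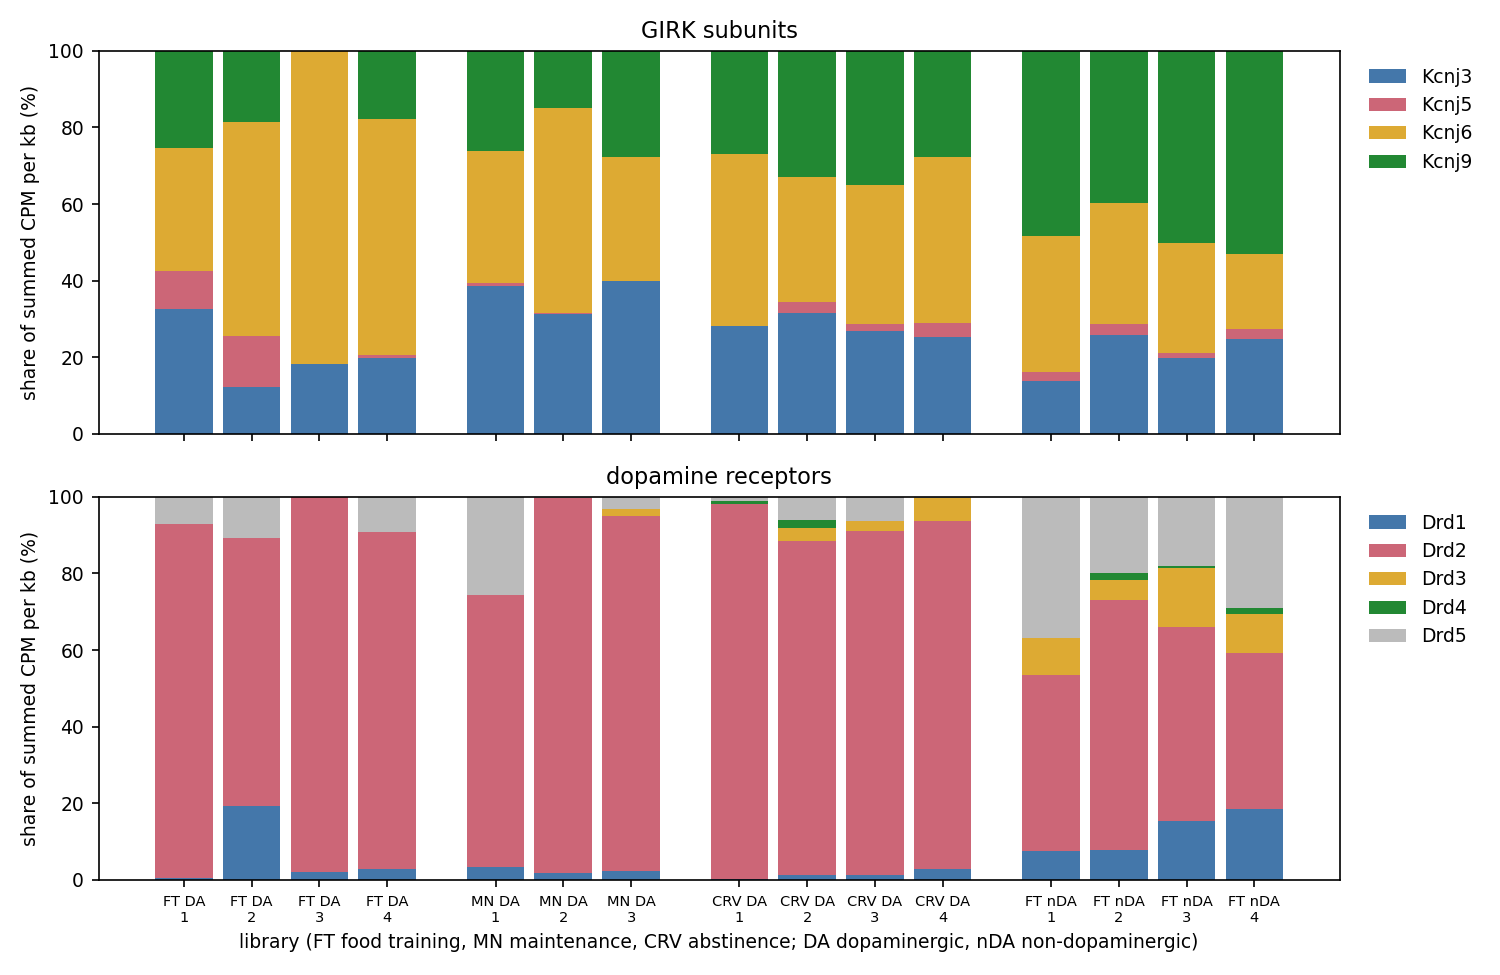
Share of each GIRK subunit gene (top) and each dopamine receptor gene (bottom) in the summed CPM per kb of its set, in percent, with 1 bar per library and no error bars. Drd2 fills 69.9% to 98% of the receptor bar in the food-training DA libraries and 40.8% to 65.2% in the nDA libraries, and Kcnj9 fills 39.7% to 53% of the GIRK bar in the nDA libraries.

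Across the stages, 0 of the 7 genes tested were called in any comparison among DA nuclei by edgeR, and all 7 overlapped between the groups in each. For maintenance against food training, 1 of the 7 (Drd3) had an unadjusted p under 0.05, DESeq2 called 1 (Drd3) and limma-voom 0. Drd3 was tested through the cocaine libraries with counts alone, as given above. Of all genes, 11.6% had an unadjusted p under 0.05, edgeR called 0.131% and DESeq2 5.13%, and 8.45% had no overlap. For abstinence against food training, the corresponding counts were 1, 1 (Drd3) and 0; 0% of genes were called by edgeR and 0.735% by DESeq2, 819 genes (4.3%) had an unadjusted p under 0.05, and 3.34% had no overlap. For abstinence against maintenance they were 0, 0 and 0, with 0.178% of genes called by edgeR and 4.16% by DESeq2, 9.92% with an unadjusted p under 0.05 and 12.2% without overlap. A joint test of any difference among the 3 stages called 0 of the 7 (lowest unadjusted p = 0.0524, adjusted p = 0.635, Drd3, edgeR). Comparisons against food training share the same 4 control libraries.

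Several of these genes had DA libraries at 0. Of the 7 genes in the fit of DA libraries, 4 (Drd3, Drd5, Kcnj5 and Kcnj9) had 0 counts in 1 library and at least 100 in another, as did 32.4% of all genes tested there. Food-training DA replicate 3, the shallowest library, was at 0 for all 4, yet had 134 CPM of Drd2 and 74.6 CPM of Kcnj6. Among genes averaging at least 100 counts in a group, those with a library at 0 made up 16.1% in food-training DA, 9.33% in maintenance DA, 4.86% in abstinence DA and 0.109% in nDA libraries. The part of these zeros in the stage differences was not tested.

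RNAs of single genes that link D2-class receptors to GIRK channels differed between the populations. Of 15 Gi/o alpha and beta-gamma genes tested, 2 were higher and 2 lower in DA nuclei, against 3.63% and 9.17% of all genes, with a list median of -0.04 against -0.21 for all genes. Gng3, a neuronal gamma subunit, was at 84.1 ± 9.29 CPM in DA and 34.9 ± 6.74 CPM in nDA libraries (SD, n = 4 each; log2 difference 1.28, adjusted p = 0.0067, edgeR). Gnb1, the main beta subunit, was at 483 ± 56.1 and 292 ± 53.3 CPM (0.74, adjusted p = 0.0336, edgeR). Gnao1, the Go alpha subunit abundant in neurons, was lower, at 78.1 ± 11.8 CPM in DA and 196 ± 31.1 CPM in nDA libraries (-1.32, adjusted p = 0.0067, edgeR). Gnb3, the cone photoreceptor beta subunit, had 0 counts in the DA libraries and 0.898 ± 0.385 CPM in nDA, so it entered the test through its nDA counts alone. Without Gnb3, 1 gene of this list was lower, and the count of lower genes is then under the share of all genes. Of these 4 genes, Gng3 and Gnao1 kept their calls in all 17 other settings, Gnb1 in 11 of 17 and Gnb3 in 14 of 16. Both Gnb1 and Gnb3 lost their calls with replicate number added as a block.

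Of a list of 10 genes, made up of RGS genes, whose proteins speed up the end of Gi/o signals, and Rgs7bp, a membrane anchor for some of them, Rgs11 alone was called, at 120 ± 62.7 CPM in DA and 44.8 ± 16 CPM in nDA libraries (1.43, adjusted p = 0.045, edgeR), and it kept the call in 8 of 17 other settings. Of 13 receptor kinase, arrestin and trafficking genes, 1 was higher, Caly (calcyon), a vesicle protein first described as a D1 receptor partner, at 526 ± 87.8 and 282 ± 32.2 CPM (0.91, adjusted p = 0.01, edgeR). Of 10 D1-class effectors, among them the adenylyl cyclases and the DARPP-32 gene Ppp1r1b, 0 were called by edgeR, DESeq2 or limma-voom, and 2 had an unadjusted p under 0.05 in edgeR. Among all genes edgeR called 12.8% in either direction and 24.3% had an unadjusted p under 0.05, so the counts of these 3 lists are at or below the background.

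Other Gi/o-coupled receptors that open GIRK channels gave 3 higher of 10 tested and 0 lower, against 3.63% and 9.17% of all genes, with a list median of 0.76. The lists were chosen with earlier results of these data known. This count and those of the other lists are thus no independent support for a difference of a gene class. Oprk1, the kappa opioid receptor through which dynorphin acts on dopamine neurons, was at 367 ± 101 CPM in DA and 30 ± 5.17 CPM in nDA nuclei, a log2 difference of 3.63 (adjusted p = 0.000651, edgeR). The difference of Drd2 was 3.34. Gabbr1, a GABA-B receptor subunit, was at 1060 ± 129 and 448 ± 124 CPM (1.25, adjusted p = 0.00986, edgeR), while its obligate partner Gabbr2 was at 70 and 83.1 CPM and was not called. Oprl1, the nociceptin receptor, was at 354 ± 102 and 158 ± 34.3 CPM (adjusted p = 0.0148, edgeR). All 3 calls held in each of 17 other settings.

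Among 10 other inwardly rectifying potassium channel genes tested, Kcnj10 was lower in DA nuclei, at 23.8 ± 12.8 against 111 ± 10.8 CPM (-2.21, adjusted p = 0.0067, edgeR), and the list median was -0.52. Kcnj10 encodes the glial channel Kir4.1, and the astrocyte and oligodendrocyte marker sums given above were also lower in DA nuclei; their part in the Kcnj10 difference was not tested. Kcnj10 kept its call in 16 of 17 other settings. Over all 68 genes tested from these lists, edgeR called 0 in each comparison among the 3 stages. Unadjusted p under 0.05 was reached by 8 for maintenance and 2 for abstinence against food training, and by 9 for abstinence against maintenance, where the shares of all genes were 11.6%, 4.3% and 9.92%. DESeq2 called 4, 0 and 5 of the 68 in the same order, against 5.13%, 0.735% and 4.16% of all genes, and limma-voom called 0 in each. These counts are near the background.

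**Figure D4:**
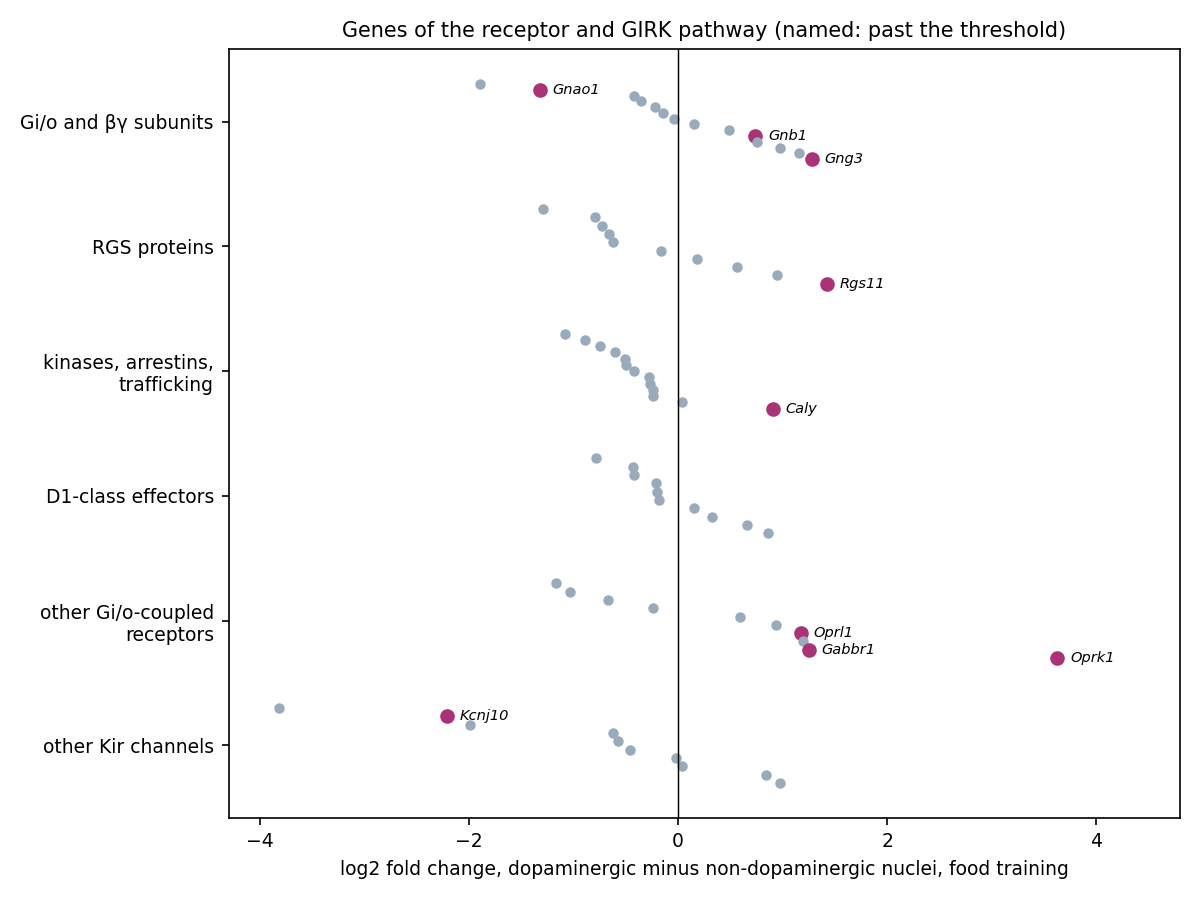
Fitted log2 fold changes, DA minus nDA nuclei of food-trained mice, for the tested genes of 6 lists around the receptors and channels; each point is a gene, without its error. Named, larger points passed the adjusted p threshold; Gnb3, at 0 in the DA libraries, is not drawn. Oprk1 lies at 3.63, and Kcnj10 at -2.21 is on the opposite side of 0.

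The genes whose log2 CPM followed each receptor or channel most closely over the 15 libraries were picked by Pearson's r among genes averaging at least 20 counts, as a description with no test. All points share the 2 populations, and low genes share libraries at 0. Drd2 was followed by Th (r = 0.981), the tyrosine hydroxylase gene. Kcnj9 was followed by Hspa12a (r = 0.988), Drd5 by Crtac1 (r = 0.93) and St3gal4 (r = 0.92), and Kcnj5 by Htr1b (r = 0.946), a Gi/o-coupled serotonin receptor, and Ntng2 (r = 0.913).

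The likeness was weaker for Kcnj6, whose nearest genes were Clpb (r = 0.835) and Ubr4 (r = 0.777), and for Drd1, with Akirin1 (r = 0.849) and Eogt (r = 0.836). For the receptors at 0 in most DA libraries, the nearest were Rhbdf2 (r = 0.984) and Tex43 (r = 0.964) for Drd3 and Lin28a (r = 0.87) and Wnt11 (r = 0.836) for Drd4.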

How the data were processed

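The deposited table holds raw counts per gene, whole numbers that the authors made from the reads. Per the submitters' processing notes, Trim Galore 0.6.7, cutadapt 1.18, STAR 2.7.10a, StringTie 2.1.5, DESeq2 1.38.3 and the mm10 (GRCm38) build were used; their roles, the annotation and strand setting are not given in the sources used here. A second deposited table covers 10 of the DA libraries, all except food-training DA replicate 3. Its counts equal the first table's in every cell, so it added no values. The library it leaves out is the one at 0 for Drd3, Drd5, Kcnj5 and Kcnj9, and it was kept in the main tests here. Counts came from low-input libraries of sorted nuclei, without a stated use of molecular identifiers.

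Genes kept by filterByExpr were tested with edgeR 4.0.16 (quasi-likelihood F-test, TMM factors, two-sided, Benjamini-Hochberg adjustment over all genes tested) in R 4.3.3: 8 food-training libraries for DA against nDA, and 11 DA libraries for the stages. CPM in the text uses TMM factors over 15 libraries; log2 CPM for likeness used a prior count of 2. Alternatives used limma 3.58.1 and DESeq2 1.42.0, other scalings and filters, a replicate block, GC correction and each library left out. The 8 genes and the lists were chosen with earlier results of these data known. The text names all 8 genes and Kcnj3, list genes past the threshold (at most 6 a list by lowest p), and for each gene the 2 most alike, of which some are not reported here. Tested on simulated counts, in which 200 genes carried a log2 change of 3, it recovered 49% for DA against nDA (18475 genes) and 57% for maintenance against food training (17896 genes). Each library pools 2 mice, and p-values measure the spread between such pools.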

Additional observations from a re-analysis of the deposited data

Results flagged for a closer look

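Drd1 was at 26.8 CPM in food-training DA replicate 2, and the other 3 libraries of the group had 0.622 to 4.95 CPM. The gap to the nearest value was 0.835 of the group's range, above Dixon's critical value of 0.829 for 4 samples. The same library had the highest Kcnj5 value, 22.2 CPM. Drd2 was at 14.2 CPM in nDA replicate 3, against 8.54 to 9.5 CPM in the other nDA libraries, with a gap of 0.83 of the range. These were 2 of 22 groups examined, where chance alone marks about 1 in 20.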

How the results depend on the processing

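The Drd2 difference between the populations kept its direction and its side of the threshold under all 17 alternatives. Over all settings, 593 of the member-level values kept direction and call and 26 reversed; of the latter none was a called value. For genes called between DA and nDA nuclei, 2534 in the main test, the strict filter (10 counts in every library) gave 1643, DESeq2 3868, limma-voom 4266 and the replicate block 775. The genes called among the 8 were Drd2 and Drd3, the latter tested through its nDA counts alone, and fell from 2 to 1 with the strict filter, which does not test Drd3, the replicate block (Drd3 adjusted p = 0.175, edgeR), and the fit of all 15 libraries; leaving out single libraries gave 2 to 3 members and 1900 to 3740 genes.

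For maintenance against food training, 25 genes in the main test became 109 with the strict filter, 977 with DESeq2, 9 with limma-voom, 12 with GC correction, and 0 with the replicate block or the GC-slope term (shared by the maintenance libraries and nDA replicate 2), and 5 (without maintenance replicate 1) to 78 (without maintenance replicate 2) with a library left out; DESeq2 called 1 member. For abstinence against food training, DESeq2 called 140 genes and 1 member. For abstinence against maintenance, 34 genes became 22 with upper quartile scaling, 69 with the strict filter, 793 with DESeq2, 2 with the replicate block, 15 with GC correction, 15 with all 15 libraries, 1 with the GC-slope term and 6 (without maintenance replicate 1 or abstinence replicate 3) to 73 (without maintenance replicate 2) with a library left out. The cause of these shifts was not tested.

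Reversed log2 values between the populations were Drd1 -0.01, Drd5 -0.38 and Kcnj5 -1.05 with limma-voom, and Drd5 -0.07 and Kcnj5 -0.87 with the replicate block. For maintenance against food training they were Drd1 0.53 and Drd5 -0.48 with limma-voom, Drd1 0.31 and Drd5 -0.07 with the replicate block, and Drd1 0.45 and Kcnj6 0.08 with the GC-slope term. Kcnj5 in abstinence against food training was 1.23 with the replicate block. In abstinence against maintenance, Drd3 was -0.50 and Kcnj9 -0.75 with the GC-slope term, and Kcnj9 -0.24 with GC correction. Leaving out single libraries also turned directions. Drd1 ranged from -0.28 (without food-training DA replicate 2) to 1.64 between the populations and from -1.40 to 0.50 (without the same library) for maintenance against food training. In the latter comparison Drd2 ranged from -0.03 (without maintenance replicate 3) to 0.56 and Drd5 from -1.35 (without maintenance replicate 1) to 0.82, with -0.13 without food-training DA replicate 3. For abstinence against food training Drd2 ranged from -0.19 to 0.11 (without food-training DA replicate 3), with 0.03 without abstinence replicate 4. For abstinence against maintenance Drd5 ranged from -1.77 to 0.41 and Kcnj6 from -0.33 to 0.03, both highest without maintenance replicate 1, and Kcnj9 from -0.12 (without maintenance replicate 2) to 0.64, with -0.06 without abstinence replicate 3.

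Same-numbered libraries correlated at 0.036 to 0.087 between food-training DA and nDA nuclei and at -0.076 to 0.032 between stages. Among nDA libraries, 3 of 4 food-training DA libraries correlated best with their own number. Whether same-numbered libraries share mice is not stated, so pairing is not settled here. The main tests did not treat the numbers as pairs, and the replicate block did. The joint stage test was not run with DESeq2 or limma-voom. Total counts of 25813697 to 59046618 set the limit that a count of 0 allows at 0.0518 to 0.108 CPM, for counting error only.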
